A study of Mus musculus with 13 samples.

Results

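The 4 FeO kidney libraries, from iron-loaded mice, were compared with the 5 WT libraries, over every gene expressed in the captured RNA. These 9 of the 13 libraries in the series were chosen by their labels alone, and the 4 Spns1 KO libraries were used to show where FeO differed from another condition and, as all 13 libraries were fitted together, in the estimate of the spread. The comparison addressed which transcripts changed in the tubule when iron was in excess, and which of these changes set iron loading apart from loss of Spns1. By the labels all mice were female, and by the methods they were littermates that carried Megalin3'Cre-Ert, an inducible Cre recombinase expressed from the megalin gene, and Uprt behind a floxed stop. By the methods WT and FeO mice shared the same alleles, Spns1 flox/+ and Uprt flox/+, so that both had a single floxed Spns1 allele although the labels call them Spns1 WT. The methods also state that the mice received tamoxifen in parallel, and that this Cre served to delete floxed Spns1 in megalin-expressing cells. Spns1 KO mice were Spns1 flox/flox. FeO mice had received iron sucrose by intraperitoneal injection, 12 mg of elemental iron a day for 3 days, and were killed 1 week after. The labels call this a dietary treatment. Age and hour of collection are not given in the sources used here.

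Uprt, uracil phosphoribosyltransferase, lets a cell build injected 4-thiouracil into its new RNA, so that the captured RNA was meant to represent transcripts of megalin-expressing proximal tubule cells. Megalin is the endocytic receptor that these cells use to retrieve filtered proteins, including iron carriers. Cells read their iron level through the iron regulatory proteins IRP1 (Aco1) and IRP2 (Ireb2). When iron is scarce these proteins bind a hairpin called the iron-responsive element. In a 5′ UTR the bound protein blocks translation, as in ferritin mRNA, and in the 3′ UTR of the transferrin receptor it protects the mRNA from decay. When iron is ample the proteins release the hairpins, ferritin is made and the receptor mRNA decays. Iron that escapes storage can oxidise lipids, and the factor NRF2 drives genes of glutathione and quinone metabolism that answer oxidants.

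The hairpins are shown first because several of the iron genes described below hold one. RNA levels do not measure translation, on which a 5′ UTR hairpin acts, and binding of the proteins was not measured. In each line below the capitals mark the loop CAGTGN (N being A, C or T), which follows the bulged C and a stem of 5 base pairs that the search required. At least 4 of the 5 pairs below the bulge were required too. The sequences were read from GENCODE vM21 transcripts (build GRCm38).
Fth1, 5′ UTR, chr19:9982733-9982759, plus strand: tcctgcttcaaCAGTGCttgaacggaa
Ftl1, 5′ UTR, chr7:45459780-45459806, minus strand: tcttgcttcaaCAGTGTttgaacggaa
Slc40a1, 5′ UTR, chr1:45925466-45925492, minus strand: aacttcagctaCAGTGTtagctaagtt
Alas2, 5′ UTR, chrX:150547459-150547485, plus strand: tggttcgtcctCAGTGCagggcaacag
Ppp1r1b, 5′ UTR, chr11:98348983-98349009, plus strand: gggtgcggggaCAGTGCtcctcctcct
Tfrc, the first of its 4, 3′ UTR, chr16:32631220-32631246, plus strand: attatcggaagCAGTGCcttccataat
Of 15445 tested protein-coding genes, 7 (0.045%) held such a hairpin in a 5′ UTR and 6 (0.039%) in a 3′ UTR, where Tfrc alone had 4. Hairpins on a chromosome not reported here were left out of these counts, while its genes are among the 15445. Of the 7, 5 were called up in FeO against WT (Fth1, Ftl1, Slc40a1, Alas2 and Ppp1r1b), beside 22.4% of all genes tested, and the copy Ftl1-ps1 was called down. Of the 6, none was called up by edgeR (0 at an unadjusted p under 0.05, 0 by DESeq2 and limma-voom) and Trim23 was called down (-0.74), beside 19.7% of all genes. A match is a description of the letters and does not show that a protein binds there.

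Across the transcriptome, 3691 of 16468 tested genes were called up in FeO against WT and 3252 were called down, which is 22.4% and 19.7% of the genes tested. Against Spns1 KO, 1334 genes (8.1%) were up and 1113 (6.76%) were down. With library totals in place of TMM factors those counts were 1465 and 751, a split of 66.1% against 54.5% upregulated among the calls. Of 79 named genes called against Spns1 KO, 30 were called under every alternative and 37 lost the call in at least 1 fit with a library left out. A call required an adjusted p under 0.05 in edgeR's quasi-likelihood test and a log2 fold change beyond 0.5 in either direction. Levels are given in CPM, the count of a gene scaled to the library total after TMM scaling. Library totals were 25986133 to 29981814 counts in FeO and 23068023 to 37362311 in WT. Spns1 itself, which carries a single floxed allele in both groups, was at 57.2, 61.4, 57.6, 39.2 and 62.9 CPM across WT 1 to 5 and 58.7, 56.7, 39.0 and 45.9 CPM across FeO 1 to 4 (log2 fold change -0.15, standard error 0.18, adjusted p = 0.510 from edgeR). The size of the change moved with transcript length. Among genes in the shortest decile (median 917 bases) 49.5% were up and 9.34% down, whereas in the longest decile (median 8266 bases) 1.86% were up and 53.6% down. The fit was therefore repeated with the dependence of each library on length and GC content removed by a smooth curve, and the counts or values of the gene lists without this trend are given beside them. In that fit 2751 genes were called up and 2411 down against WT, the background of the counts without the trend. The cause of the length trend was not tested. Where edgeR is said to call none of a list in a direction against WT, 0 members of it passed an unadjusted p under 0.05 in that direction and 0 were called by DESeq2 or limma-voom, unless other counts stand beside it.

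**Figure D1:**
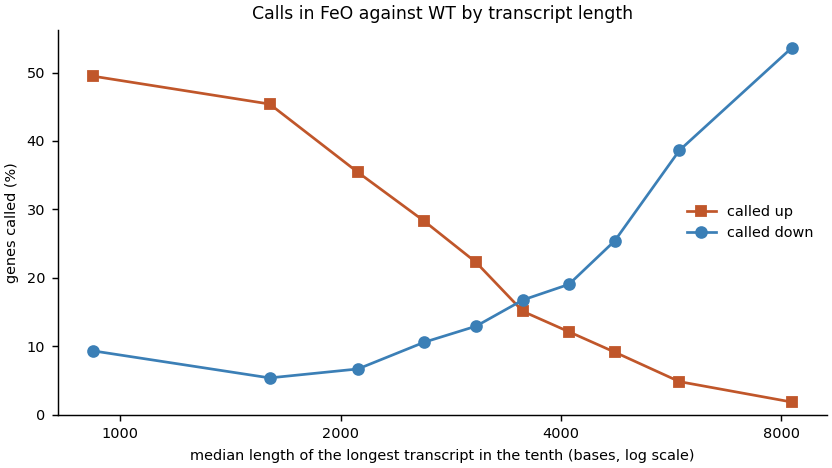
Share of genes called up (orange squares) and down (blue circles) in FeO against WT, in percent, in deciles of the tested genes ordered by the length of their longest transcript (x axis, bases, log scale). The share called up falls from 49.5% in the shortest decile to 1.86% in the longest, while the share called down rises to 53.6%.

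Iron storage genes were higher in FeO. Of the 5 tested genes of ferritin and its iron chaperones, 4 were up and none was down, with a median log2 fold change of 0.87 (0.68 after the length and GC trend was removed, when 4 were again up but Pcbp1 was not among them). The share up, 80%, stands beside 22.4% of all genes. Fth1, the ferritin heavy chain that oxidises iron for storage (chromosome 19 from 9980598 to 9985098 of GRCm38), was at 675, 632, 485, 602 and 858 CPM across WT 1 to 5 and 1679, 1615, 2711 and 1897 CPM across FeO 1 to 4. Every FeO library lay above every WT library (log2 fold change 1.60, standard error 0.26, adjusted p = 0.000551 from edgeR). Ftl1, the light chain, was at 788, 712, 527, 585 and 677 CPM across WT 1 to 5 and 1837, 1662, 1944 and 1336 CPM across FeO 1 to 4, again without overlap (log2 fold change 1.37, standard error 0.25, adjusted p = 0.000890 from edgeR). Of the 31-base sequences of Ftl1, 64.2% also occur in other genes, chiefly its copy Ftl1-ps1, whose own level was lower in FeO (-1.02), so that the division of reads between them is uncertain. Pcbp2, which delivers iron to ferritin, was at 226, 208, 205, 244 and 219 CPM across WT 1 to 5 and 457, 275, 435 and 347 CPM across FeO 1 to 4 (log2 fold change 0.78, standard error 0.18, adjusted p = 0.00375 from edgeR). Its relative Pcbp1 was also called (0.87), but FeO 4, at 89.2 CPM, lay within the WT range.

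Among genes of iron uptake and reduction 3 of 17 were up and 2 down, shares below the 22.4% and 19.7% of all genes tested, with a median log2 fold change of -0.07 (0.32, with 4 up and 1 down, without the length trend). Those that rose were the ferrireductases Steap3 and Steap4, which reduce ferric iron inside endosomes and at membranes, and Lcn2, the siderophore-binding protein NGAL. Steap3 (chromosome 1 from 120190757 to 120272705) was at 6.51, 5.88, 9.36, 9.01 and 8.72 CPM across WT 1 to 5 and 23.3, 24.1, 37.6 and 13.5 CPM across FeO 1 to 4 (log2 fold change 1.64, standard error 0.26, adjusted p = 0.000494 from edgeR). Its Spns1 KO levels were 14.6, 10.4, 11.8 and 8.37 CPM, and the difference between FeO and Spns1 KO also passed the limits (log2 fold change 1.12, standard error 0.27, adjusted p = 0.0144 from edgeR). Steap4 was at 5.64, 6.10, 4.41, 12.6 and 5.21 CPM across WT 1 to 5 and 22.5, 13.9, 13.2 and 14.8 CPM across FeO 1 to 4 (log2 fold change 1.24, standard error 0.37, adjusted p = 0.0147 from edgeR), where WT 4 stood nearest to FeO. Lcn2, at 2.80, 3.88, 2.87, 2.44 and 4.94 CPM in WT and 5.28, 5.32, 9.03 and 11.4 CPM in FeO, rose by a smaller margin (log2 fold change 1.20, standard error 0.30, adjusted p = 0.00510 from edgeR) and lost its call without the length trend. The genes that fell were Slc39a14, a zinc transporter family member that carries non-transferrin-bound iron, and the reductase Cybrd1. Slc39a14 was at 229.9, 241, 217, 184 and 161 CPM across WT 1 to 5 and 89.5, 134, 128 and 75.3 CPM across FeO 1 to 4, with no overlap between the groups (log2 fold change -0.95, standard error 0.23, adjusted p = 0.00400 from edgeR). Cybrd1 held a tight range in each group, 4.30, 4.50, 4.06, 4.2 and 4.29 CPM in WT and 2.43, 2.89, 2.29 and 2.81 CPM in FeO (log2 fold change -0.71, standard error 0.22, adjusted p = 0.0165 from edgeR), and lost its call without the length trend.

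The transferrin receptor Tfrc, whose mRNA carries the 3′ UTR hairpins shown above, was at 90.7, 96.3, 112, 126 and 96.8 CPM across WT 1 to 5 and 107, 45.8, 55.3 and 66.9 CPM across FeO 1 to 4. FeO 2 to 4 lay below every WT library while FeO 1 lay among them, and the difference did not pass the limits (log2 fold change -0.60, standard error 0.26, adjusted p = 0.0672 from edgeR). Slc11a2 (DMT1), which moves ferrous iron out of endosomes, was at 69.3, 67.2, 82.6, 76.2 and 54.9 CPM across WT 1 to 5 and 50.7, 65.7, 67.6 and 51.5 CPM across FeO 1 to 4 and did not pass either (log2 fold change -0.25, standard error 0.16, adjusted p = 0.212 from edgeR). It was lower in FeO than in Spns1 KO (log2 fold change -1.04, standard error 0.17, adjusted p = 0.00324 from edgeR). The endocytic receptors megalin (Lrp2) and cubilin (Cubn) did not differ from WT within these limits (log2 fold changes -0.26 and -0.39, adjusted p = 0.312 and 0.164 from edgeR), and both estimates turned positive once the length trend was removed. Against Spns1 KO they were lower, by -1.01 and -1.41 on the log2 scale. Of the 17 uptake genes 7 were lower in FeO than in Spns1 KO and 2 were higher, beside 6.76% and 8.1% of all genes.

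Of 16 tested genes of export and systemic control 4 were up and 4 down (4 up and 2 down without the length trend), or 25% each way beside 22.4% and 19.7% of all genes. Slc40a1, the iron exporter ferroportin, was at 51.2, 50.1, 57.0, 92.0 and 55.4 CPM across WT 1 to 5 and 99.3, 96.8, 127 and 75.7 CPM across FeO 1 to 4. WT 4, the highest WT library, exceeded FeO 4, and the call was close to the limit (log2 fold change 0.71, standard error 0.28, adjusted p = 0.0480 from edgeR) and was lost in 8 of 13 fits with a library left out. Hfe, a partner of transferrin receptors, separated fully, at 12.8, 12.2, 9.45, 11.8 and 14.1 CPM across WT 1 to 5 and 33.6, 19.0, 26.6 and 23.4 CPM across FeO 1 to 4 (log2 fold change 1.09, standard error 0.20, adjusted p = 0.000875 from edgeR). Hfe was also higher than in Spns1 KO (0.69 on the log2 scale, adjusted p = 0.0381 from edgeR), a call lost in 7 of 13 fits with a library left out. The ferroxidase ceruloplasmin (Cp) rose by 0.59, with FeO 1 at 101 CPM and the other FeO libraries at 43.2, 49.3 and 61.1 CPM against 38.5, 40.0, 47.2, 49.7 and 36.3 CPM in WT. Tmprss6, a protease that restrains hepcidin signalling, was called at levels under 1 CPM (0, 0.154, 0.0945, 0.0706 and 0.347 CPM in WT and 0.262, 0.422, 0.355 and 0.787 CPM in FeO). The 4 genes down on this list belong to the bone morphogenetic protein (BMP) pathway, which in the liver reports iron to hepcidin. They were the mediators Smad1 and Smad5, the inhibitor Smad7 and the target Id1. Smad5 was at 140.3, 144, 182, 181 and 137 CPM across WT 1 to 5 and 68.7, 113, 82.6 and 79.4 CPM across FeO 1 to 4 (log2 fold change -0.87, standard error 0.17, adjusted p = 0.00119 from edgeR). Id1 fell by 0.89 on the log2 scale, with FeO 4 inside the WT range, a call lost in 10 of 13 fits with a library left out. The calls of Smad5 and Smad7 were lost without the length trend. Smad9, a further mediator of the same pathway that was not on this list, showed a larger fall and is described below.

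**Figure D2:**
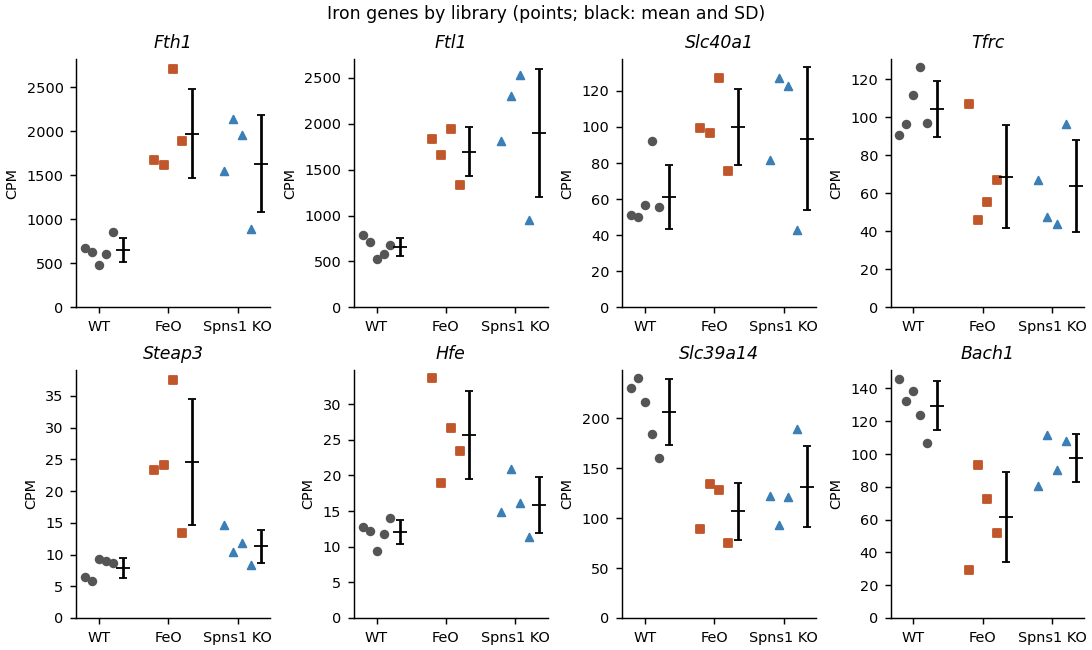
Levels in CPM (y axes, from 0) of 8 iron genes in each of the 13 libraries, by group (x axes), with the mean and SD of each group in black. Every FeO library is above every WT library for Fth1, Ftl1, Steap3 and Hfe and below for Slc39a14 and Bach1, while the groups overlap for Slc40a1 and Tfrc.

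Sensors of iron did not pass the limits, apart from 3 genes of the list. Aco1 and Ireb2, which encode IRP1 and IRP2, had log2 fold changes of 0.07 and -0.54, and Fbxl5, which marks IRP2 for destruction when iron is ample, of 0.36 (adjusted p = 0.813, 0.0562 and 0.157 from edgeR). Of the 9 tested sensing genes 1 (11.1%) was up and 2 (22.2%) down, beside 22.4% and 19.7% of all genes. The gene up was Skp1 (1.25), a subunit of the ligase that holds FBXL5. The 2 that were down, Herc2 (-1.01) and Eif3a (-0.70), both lost their call without the length trend, when 2 genes were up and 0 down. Ndrg1, a gene induced by iron depletion in many cells, ranged from 2085 to 8137 CPM over the FeO libraries against 2895 to 5621 CPM in WT, and no shift was detected (log2 fold change 0.24, standard error 0.35, adjusted p = 0.584 from edgeR).

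In heme synthesis, transport and breakdown 13 of 24 genes (54.2%) were up and 2 (8.33%) down, beside 22.4% and 19.7% of all genes. The median log2 fold change was 0.74, and without the length trend 7 were up and 2 down. Slc46a1, a heme and folate carrier, was at 5.04, 4.68, 4.25, 5.30 and 4.59 CPM across WT 1 to 5 and 11.8, 12.4, 18.3 and 11.4 CPM across FeO 1 to 4 (log2 fold change 1.5, standard error 0.18, adjusted p = 0.000313 from edgeR). Tmem14c, which carries porphyrin into the mitochondrial matrix, and the heme-binding Pgrmc1 rose by 1.49 and 1.28. Alas2, the heme synthesis enzyme of red cell precursors, was called (2.07) at only 0.262, 0.551, 0.276 and 1.80 CPM in FeO, with FeO 4 the highest. Bach1, the heme-responsive repressor of Hmox1 and of antioxidant genes, fell. Its levels were 146, 132, 139, 124 and 107 CPM across WT 1 to 5 and 29.4, 93.1, 72.6 and 51.5 CPM across FeO 1 to 4, without overlap (log2 fold change -1.07, standard error 0.25, adjusted p = 0.00371 from edgeR). Hmox1, which breaks heme down and releases its iron, was too variable for a call, at 98.4, 70.4, 30.0, 26.2 and 260.0 CPM across WT 1 to 5 and 84.7, 222, 294 and 61.1 CPM across FeO 1 to 4 (log2 fold change 0.77, standard error 0.86, adjusted p = 0.479 from edgeR). Flvcr1, named for heme export, fell by 0.73 on the log2 scale. In iron-sulfur cluster assembly 13 of 29 genes (44.8%) were up, beside 22.4% of all genes (8 up and 1 down without the length trend). Those up were led by Bola1 (1.45), Hscb (1.44), Ciao2b (1.43) and Glrx5 (1.40). The flavoprotein gene Ndor1 alone was down (-0.82), or 3.45% beside 19.7% of all genes. Hscb, the cochaperone that hands clusters on, was at 5.17, 5.08, 3.65, 3.53 and 4.32 CPM across WT 1 to 5 and 9.67, 11.2, 18.2 and 8.32 CPM across FeO 1 to 4 (log2 fold change 1.44, standard error 0.26, adjusted p = 0.000742 from edgeR).

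Enzymes that use iron and oxoglutarate to oxidise proteins, DNA or histones went mostly the other way. Of 63, 10 (15.9%) were up and 25 (39.7%) down, beside 22.4% and 19.7% of all genes. The median was -0.42, and without the length trend 9 were up and 17 down. The fall was led by P4ha3, a collagen prolyl hydroxylase, at 13.2, 15.2, 10.8, 9.86 and 5.10 CPM across WT 1 to 5 and 2.52, 3.21, 1.10 and 1.39 CPM across FeO 1 to 4 (log2 fold change -2.39, standard error 0.48, adjusted p = 0.00139 from edgeR). Next was Tet1, which oxidises methylated cytosine. It was at 11.6, 11.5, 14.6, 15.8 and 7.22 CPM across WT 1 to 5 and 2.03, 4.61, 3.35 and 3.07 CPM across FeO 1 to 4 (log2 fold change -1.89, standard error 0.29, adjusted p = 0.000462 from edgeR), and it was also lower than in every Spns1 KO library (-1.77). The histone demethylase genes Kdm5a and Jmjd1c fell by 1.45 and 1.44. Those that rose included Alkbh7 (1.55), Ogfod3 (1.13), P3h4 (1.13), a member of the prolyl hydroxylase family, and Egln3 (1.05), a prolyl hydroxylase of hypoxia-inducible factor.

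Antioxidant genes rose together. Of 60 tested NRF2 targets and glutathione enzymes 44 (73.3%, against 22.4% of all genes) were up and none was down, with a median log2 fold change of 0.99 beside -0.01 over all genes tested. Without the length trend 35 were up and none down (median 0.68), and leaving out any library gave between 39 and 48 up. Nqo1, a quinone reductase (chromosome 8 from 107388225 to 107403206), was at 56.6, 51.1, 46.5, 57.4 and 54.6 CPM across WT 1 to 5 and 242, 172, 270.3 and 98.1 CPM across FeO 1 to 4 (log2 fold change 1.88, standard error 0.32, adjusted p = 0.000630 from edgeR). The carbonyl reductase Cbr3, the glutathione transferase Gstp1, Nqo1 and the carbonyl reductase Cbr1 led the list, with log2 fold changes of 2.23, 1.91, 1.88 and 1.83. Cbr1 was at 62.2, 60.7, 63.1, 48.8 and 81.4 CPM across WT 1 to 5 and 206, 212, 376 and 107 CPM across FeO 1 to 4. Gstp1, which shares 38.5% of its 31-base sequences with other genes, was at 8.69, 7.76, 6.05, 7.42 and 10.4 CPM across WT 1 to 5 and 33.2, 25.1, 41.0 and 22.2 CPM across FeO 1 to 4. Prdx1, a peroxidase, Sod1, a superoxide dismutase, and Mgst1, a membrane glutathione transferase, rose by 1.11, 1.29 and 1.5. None of these 7 genes differed from Spns1 KO at the limits, where 7 of the 60 genes were higher in FeO and 1 was lower, beside 8.1% and 6.76% of all genes. Among those that were higher than in Spns1 KO were G6pdx, the enzyme that feeds NADPH into glutathione reduction, and Srxn1, sulfiredoxin. G6pdx was at 20.5, 20.9, 21.6, 25.2 and 25.6 CPM across WT 1 to 5 and 80.9, 33.7, 51.2 and 43.5 CPM across FeO 1 to 4 and at 28.3, 23.4, 29.6 and 14.6 CPM in Spns1 KO 1 to 4 (1.20 against WT and 1.13 against Spns1 KO).

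The letters that NRF2 is known to bind, the antioxidant response element TGACNNNGC, were searched on both strands in the 250 bases before and 50 after each annotated start (RefSeq promoters, GRCm38.p6). Of the 52 list members with a promoter 14 (26.9%) held the motif, against 2035 of 12345 tested genes (16.5%). Of these 14, 9 were called up, beside 44 of 60 (73.3%) in the whole list, which includes the 14 and members without a promoter. Whether members with the motif rose more often than the rest was not tested. The motif is shown for 4 of the 9, with the motif in capitals, as it reads on the gene's own strand.
Me1, promoter, chr9:86695903-86695929, minus strand: atgccgccgTGACTCAGCgcttctcgc
Gstm5, promoter, chr3:107895803-107895829, plus strand: accgcccacTGACCACGCggagggcgg
G6pdx, promoter, chrX:74428920-74428946, minus strand: ggcgggtcaGCTCAGTCAaagcacacg
Prdx1, promoter, chr4:116685457-116685483, plus strand: agggaaagcGCTGAGTCAtcccccgta
In G6pdx and Prdx1 the capitals are the motif of the opposite strand. Me1, malic enzyme, was at 75.4, 70.0, 67.5, 87.0 and 57.4 CPM across WT 1 to 5 and 188, 78.9, 169 and 119.9 CPM across FeO 1 to 4, with FeO 2 inside the WT range (log2 fold change 0.96, standard error 0.27, adjusted p = 0.0107 from edgeR). Gstm5, a glutathione transferase, rose by 1.19. A motif is a description of the window and not evidence of binding.

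Genes that control ferroptosis, the iron-dependent form of cell death by lipid peroxidation, were up in 9 of 28 cases and down in 2 (5 up and 2 down without the length trend), or 32.1% up beside 22.4% of all genes. Gpx4, the peroxidase that clears lipid hydroperoxides, was at 108, 103, 63.7, 63.1 and 87.5 CPM across WT 1 to 5 and 209, 189, 233 and 148 CPM across FeO 1 to 4 (log2 fold change 1.19, standard error 0.25, adjusted p = 0.00195 from edgeR). Its call was lost without the length trend (log2 fold change 0.48). Dhcr7, the last enzyme of cholesterol synthesis, rose by 1.40, an average set largely by FeO 1 (77.0, 24.7, 27.5 and 11.8 CPM in FeO and 13.6, 13.3, 9.89, 16.1 and 13.9 CPM in WT). Cisd1, an iron-sulfur protein of the mitochondrial outer membrane, Vdac3, a channel of the same membrane, and Pebp1 rose by 1.40, 1.29 and 1.20. The genes that fell were Acsl3 (-0.62), a fatty acid activating enzyme, and Fanca (-0.73). Against Spns1 KO 9 of these genes were up and 1 was down, beside background shares of 8.1% and 6.76%.

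Chaperones of the endoplasmic reticulum (ER) also rose, with 17 of 32 stress response genes up and 2 down against WT (14 up and 1 down without the length trend) and 9 up and none down against Spns1 KO (2 down at an unadjusted p under 0.05 in edgeR, 0 by DESeq2 and limma-voom). Against WT the shares were 53.1% and 6.25%, beside 22.4% and 19.7% of all genes. Against Spns1 KO 8.1% of all genes were up and 6.76% down. Sdf2l1, an ER chaperone component, was at 1.44, 1.42, 0.693, 1.13 and 0.965 CPM across WT 1 to 5 and 9.61, 5.22, 9.55 and 3.64 CPM across FeO 1 to 4 and at 2.56, 2.62, 3.74 and 1.58 CPM in Spns1 KO (log2 fold change 2.62, standard error 0.34, adjusted p = 0.000363 from edgeR, and 1.42 against Spns1 KO). Calr, the lectin chaperone calreticulin, was at 163, 153, 134, 132 and 153 CPM across WT 1 to 5 and 586, 369, 695 and 394 CPM across FeO 1 to 4 (log2 fold change 1.80, standard error 0.23, adjusted p = 0.000337 from edgeR), and its difference from Spns1 KO was 0.97. Manf, a secreted ER stress factor, and Pdia3, a disulfide isomerase, rose by 1.42 and 1.41. Of the 21 heat shock genes 10 (47.6%, beside 22.4% of all genes) rose and none fell, with or without the length trend. Cryab, a small heat shock protein, was at 23.9, 24.6, 23.5, 28.9 and 30.8 CPM across WT 1 to 5 and 129, 92.6, 97.3 and 117 CPM across FeO 1 to 4 (log2 fold change 2.05, standard error 0.19, adjusted p = 5.08e-05 from edgeR). Hspb8 was higher than in both other groups (1.52 against WT and 1.99 against Spns1 KO), and Hspe1 and Hspb1 rose by 1.28 and 1.19 but lost their calls without the length trend.

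Zinc handling gave no single direction, with 6 of 21 genes (28.6%) up and 5 (23.8%) down, beside 22.4% and 19.7% of all genes. Without the length trend 5 of these were up and 2 down. The metallothioneins Mt1 and Mt2, metal-buffering proteins, were at 289, 326, 449 and 233 CPM and 87.3, 105, 78.2 and 106 CPM in FeO, with no call against WT (log2 fold changes 0.86 and -0.22, adjusted p = 0.0692 and 0.733 from edgeR). Mtf1, the factor that drives them, fell from 47.5, 47.7, 52.9, 48.2 and 42.9 CPM in WT to 24.4, 28.6, 26.5 and 25 CPM in FeO (log2 fold change -0.87, standard error 0.13, adjusted p = 0.000462 from edgeR), a call lost without the length trend. The zinc exporter Slc30a1 also fell (-1.05), while the importer Slc39a1 rose (1.02). The p53 list leaned down, with 20 of its 28 genes below WT and a median log2 fold change of -0.42. Of the 28, 4 (14.3%) were called up, with Pltp (1.82) and Phlda3 (1.18) foremost. The 5 (17.9%) that were down were led by Trp53inp1 (-2.30) and Sesn1 (-1.33). Both shares are below the 22.4% and 19.7% of all genes tested. Without the length trend 3 were up and 8 down, with a median of -0.37. Cdkn1a, the cell cycle inhibitor p21, was at 289, 261, 183, 104 and 234 CPM across WT 1 to 5 and 136, 129, 139 and 102 CPM across FeO 1 to 4, with no call (log2 fold change -0.76, standard error 0.37, adjusted p = 0.103 from edgeR). Targets of hypoxia-inducible factor, whose hydroxylases need iron, were up in 17 of 36 (47.2%) and down in 5 (13.9%). Over all genes the shares were 22.4% and 19.7%, and without the length trend 17 targets were up and 6 down. The glycolytic genes Aldoa, Tpi1 and Pgam1 rose by 1.45, 1.42 and 1.24 and the mitophagy receptor Bnip3 by 1.20, whereas Ddit4 (-3.05), an inhibitor of mTORC1, and Pfkfb3 (-1.10), a glycolytic regulator, fell. WT 4 was at 7.98 CPM for Ddit4, within the FeO range, and the other WT libraries between 54.4 and 127 CPM.

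**Figure D3:**
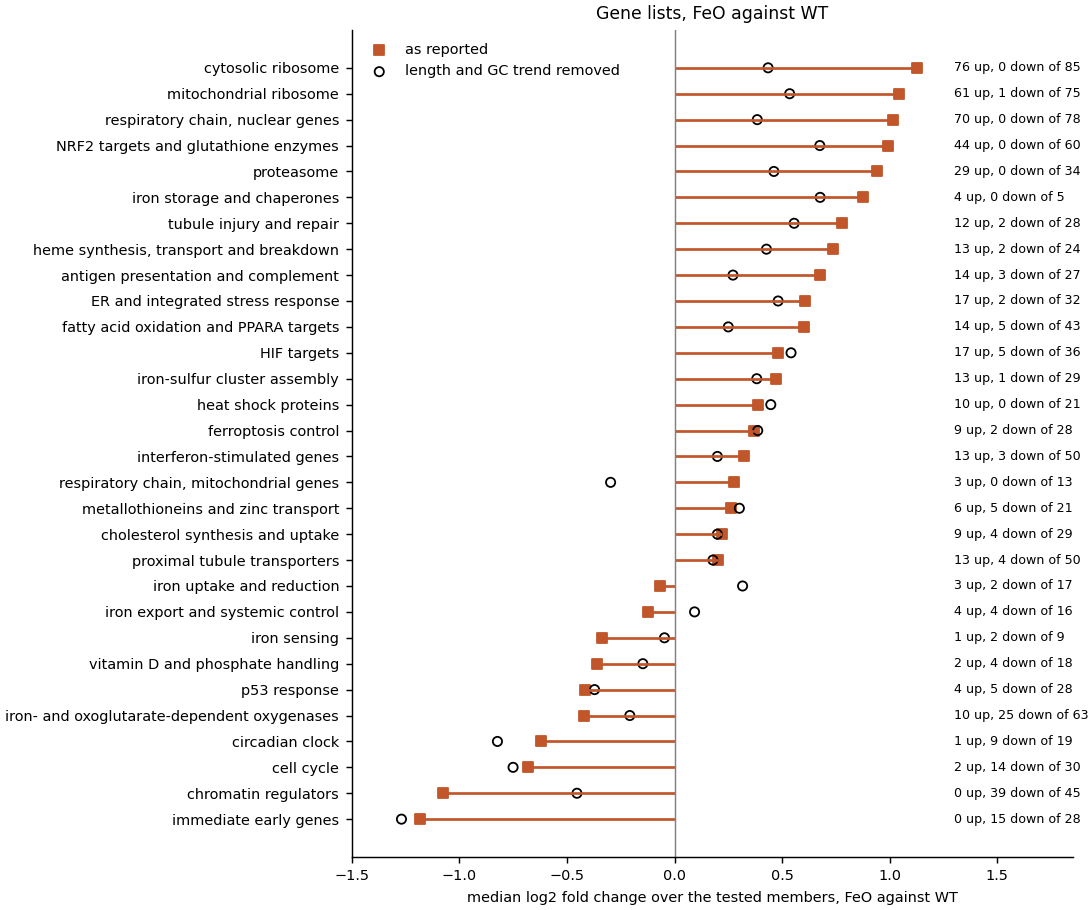
Median log2 fold change of FeO against WT (x axis) over the tested members of each gene list (y axis), as reported (orange squares) and after removal of a length and GC trend (open circles), with the number of members called up and down at the right. NRF2 targets keep a median of 0.68 without the trend, while ribosomal and respiratory chain lists, made of short genes, drop to 0.43 and 0.38, and the medians of mitochondrial genes, iron uptake and iron export change sign.

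Large housekeeping sets moved with transcript length. Cytosolic ribosomal proteins were up in 76 of 85, nuclear genes of the respiratory chain in 70 of 78, mitochondrial ribosomal proteins in 61 of 75 and proteasome subunits in 29 of 34, beside 22.4% of all genes. Without the length trend these counts were 29, 25, 40 and 16. The proteasome set also stood above Spns1 KO in 7 genes and below it in none, whereas for the respiratory chain the edgeR counts were 0 and 8 (1 up at an unadjusted p under 0.05, 0 by DESeq2 and limma-voom). For the proteasome 0 were below at an unadjusted p under 0.05 and 0 by DESeq2 and limma-voom. The proteasome list held 34 tested genes and the respiratory chain 78, and over all genes 8.1% were above Spns1 KO and 6.76% below. Rps7, Mrpl34, Ndufs5 and Psmb5 had the largest rise of each set (1.83, 1.92, 1.71 and 1.60). Long genes of chromatin regulators were down in 39 of 45 (86.7%, beside 19.7% of all genes), and in 19 without the trend, led by Chd2 (-1.75), Chd7 (-1.55), Ep300 (-1.5) and Kat6b (-1.47). Chd2, a chromatin remodeller, was at 207, 215, 233, 181 and 185 CPM across WT 1 to 5 and 34, 84.8, 44.0 and 81.0 CPM across FeO 1 to 4 and was also lower than in Spns1 KO (-1.08), a call lost without the length trend (-0.77).

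Genes that set FeO apart from all other libraries were then taken. Of 16468 genes tested, 487 had a mean of at least 100 counts, a call up against WT and against Spns1 KO, and every FeO library above the other 9. In the same way 265 genes were called down. At any mean, 1334 (8.1%) and 1113 (6.76%) genes were called up and down against Spns1 KO. Both comparisons use the same 4 FeO libraries, so a high FeO value enters both. Gpnmb, a lysosomal glycoprotein of macrophages and stressed cells (chromosome 6 from 49036546 to 49070929), had the largest change after the gene copy Eno1b, by the smaller of its changes against the other groups. It was at 5.80, 6.78, 1.23, 2.86 and 0.888 CPM across WT 1 to 5 and 41.2, 25, 97.3 and 63.3 CPM across FeO 1 to 4 and at 5.07, 0.920, 4.68 and 0.448 CPM in Spns1 KO 1 to 4 (log2 fold change 4.00, standard error 0.70, adjusted p = 0.000692 from edgeR, and 4.34 against Spns1 KO). The lectin receptor Clec4d, known from myeloid cells, was at 1.12, 1.42, 0.189, 1.20 and 0.579 CPM across WT 1 to 5 and 5.87, 3.54, 11.6 and 9.59 CPM across FeO 1 to 4. The leukocyte tetraspanin Cd53 was at 2.29, 2.83, 1.89, 3.32 and 2.24 CPM across WT 1 to 5 and 10.8, 5.84, 16.6 and 12.3 CPM across FeO 1 to 4. Lgals3, the galactose-binding lectin galectin-3, was at 20.1, 22, 23.1, 22.9 and 32.1 CPM across WT 1 to 5 and 207, 44.4, 60.4 and 84.6 CPM across FeO 1 to 4, with FeO 1 far above the other FeO libraries (log2 fold change 2.04, standard error 0.36, adjusted p = 0.000767 from edgeR). Mmp19, a matrix metalloproteinase, was at 4.47, 4.28, 2.52, 3.46 and 3.20 CPM across WT 1 to 5 and 28.5, 7.92, 13.9 and 12.8 CPM across FeO 1 to 4 (log2 fold change 2.13, standard error 0.32, adjusted p = 0.000461 from edgeR). Tuba8, an alpha tubulin, and Aoc1, which degrades histamine and diamines, rose by 2.49 and 2.49 against WT and by 2.27 and 1.87 against Spns1 KO. The same rule named the clock gene Npas2, described below.

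**Figure D4:**
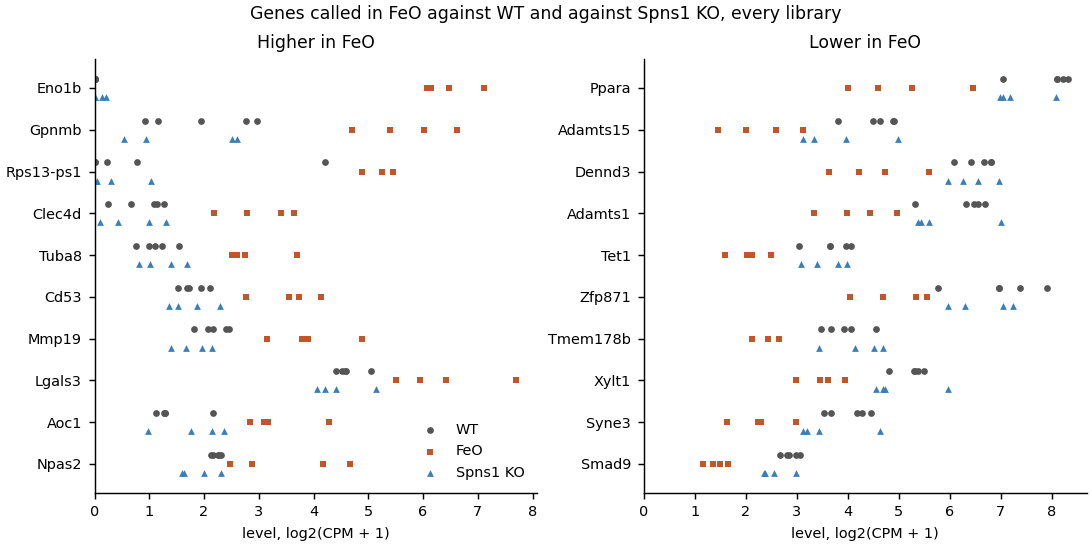
Levels on the log2(CPM + 1) scale (x axis) in every library of the 10 genes with the largest rise (left) and the 10 with the largest fall (right) among those called in FeO against WT and against Spns1 KO. FeO squares lie beyond all circles (WT) and triangles (Spns1 KO) for each gene, which the choice of genes required.

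The same rule named a pair of processed gene copies, Eno1b and Rps13-ps1, and 2 further copies without a gene name behaved alike. Eno1b, a copy of the glycolytic gene Eno1, had no count in any WT library and 10, 0, 3 and 0 counts in Spns1 KO 1 to 4, but 137, 69.8, 87.7 and 66.7 CPM in FeO, at least 4669-fold above a floor of 3 counts over the WT group. Gm6055 was likewise at 0 in WT and at 203, 247, 294 and 134 CPM in FeO, at least 11362-fold above that floor, and Gm6054 was at 67.4, 57.5, 86.5 and 41.0 CPM in FeO with 3 counts over all WT libraries. Both are copies of Map1lc3b, which encodes the autophagosome protein LC3B. Rps13-ps1 was at 0.163, 0, 0, 0.707 and 17.5 CPM across WT 1 to 5 and 42.6, 28.5, 42.7 and 36.9 CPM across FeO 1 to 4, so that WT 5 stood near the FeO range. These levels are uncertain, because 89.2%, 92.5%, 51.7% and 92.3% of the 31-base sequences of Eno1b, Gm6055, Gm6054 and Rps13-ps1 also occur in other genes, and a read from the parent can be given to the copy. Of the parents, Eno1 and Map1lc3b were higher too. Eno1 was at 174, 163, 139, 175 and 178 CPM across WT 1 to 5 and 413, 216, 289 and 248 CPM across FeO 1 to 4 (0.81). Map1lc3b was at 111, 105, 92.9, 99.3 and 105 CPM across WT 1 to 5 and 211, 143, 168 and 132 CPM across FeO 1 to 4 (0.67). In Spns1 KO 1 to 4 Eno1 had 23682, 11795, 11745 and 6338 counts, against 12603, 6650, 7338 and 6621 in FeO. Map1lc3b had 8761, 4387, 4279 and 3702 counts there, against 6427, 4406, 4265 and 3511 in FeO. Their copies nevertheless stayed near 0 in Spns1 KO, with 0, 5, 0 and 0 counts of Gm6055 and 1, 0, 0 and 1 of Gm6054. Rps13, the gene that shares most sequence with Rps13-ps1, was not called (log2 fold change 0.21, adjusted p = 0.457 from edgeR). The cause of the difference between the groups was not tested.

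Among the genes lower than in both other groups, Ppara, the nuclear receptor that drives fatty acid oxidation (chromosome 15 from 85734983 to 85802819), led by the same measure. It was at 274, 273, 299, 320.1 and 131 CPM across WT 1 to 5 and 15.1, 86.7, 37.1 and 23.1 CPM across FeO 1 to 4 and at 144, 126, 132 and 272 CPM in Spns1 KO (log2 fold change -2.68, standard error 0.45, adjusted p = 0.000644 from edgeR, and -2.06 against Spns1 KO). The secreted metalloproteases Adamts15 and Adamts1 fell by 2.40 and 2.10 against WT. Adamts1 was at 93.4, 88.2, 103, 39.1 and 78.5 CPM across WT 1 to 5 and 9.15, 20.6, 14.9 and 30.4 CPM across FeO 1 to 4. Smad9, the BMP mediator, held narrow groups, at 6.02, 6.96, 7.37, 6.18 and 5.37 CPM across WT 1 to 5 and 1.84, 2.14, 1.22 and 1.57 CPM across FeO 1 to 4 (log2 fold change -1.91, standard error 0.23, adjusted p = 0.000313 from edgeR) and 4.19, 4.84, 4.11 and 6.91 CPM in Spns1 KO. Xylt1, which starts glycosaminoglycan chains on proteoglycans, Dennd3, a Rab regulator, Syne3, a nuclear envelope protein, the zinc finger gene Zfp871 and Tmem178b changed by -1.83, -1.89, -1.92, -2.17 and -1.70. Tet1 completes the 10.

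Targets of PPARA went both ways. Of the 43 genes of fatty acid oxidation and of the PPARA program 14 (32.6%) were up and 5 (11.6%) down, beside 22.4% and 19.7% of all genes (7 and 3 without the length trend). Pdk4, the kinase that shuts off pyruvate oxidation, was at 751, 772, 980.4, 461 and 805 CPM across WT 1 to 5 and 96.4, 434, 171 and 367 CPM across FeO 1 to 4 (log2 fold change -1.5, standard error 0.49, adjusted p = 0.0221 from edgeR), and the coactivator Ppargc1a fell by 0.93. Higher in FeO were the fatty acid carrier Fabp3 (1.22) and the electron transfer subunit Etfb (1.19). Without the length trend the calls of Ppargc1a, Fabp3 and Etfb were lost. Cyp4a12a, a fatty acid hydroxylase that is androgen-driven in mouse kidney, showed the largest rise against WT after the gene copies (4.53), at 0.898, 0.863, 1.54, 0.848 and 0.463 CPM across WT 1 to 5 and 18.4, 16.2, 41.1 and 10.6 CPM across FeO 1 to 4. It did not differ from Spns1 KO at the limits (5.74, 22.1, 11.3 and 4.2 CPM), and 62.2% of its 31-base sequences occur in other genes.

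Of the 3691 genes called up against WT, 2265 had no overlap and a mean of at least 100 counts. Among these, the 12 with the largest change also included the immunoglobulin genes Igha and Igkc, the macrophage genes Lyz2 and Ccl6, Angptl7, Hdc and Sdf2l1. Lyz2, lysozyme, was at 7.35, 10.6, 2.33, 8.12 and 2.74 CPM across WT 1 to 5 and 45.8, 18, 56.6 and 89.3 CPM across FeO 1 to 4 (log2 fold change 3.07, standard error 0.62, adjusted p = 0.00147 from edgeR). Ccl6, a chemokine, rose by 2.54 and was higher than in Spns1 KO (1.65), whereas Igha (3.33), Igkc (3.11) and Hdc (2.55), histidine decarboxylase, were not. Angptl7, an angiopoietin-like secreted protein, was at 22.9, 18.5, 13.9, 5.30 and 13 CPM across WT 1 to 5 and 31.9, 76.4, 214 and 80.3 CPM across FeO 1 to 4, and a single Spns1 KO library was at 142 CPM. At the other end, 1740 of the 3252 genes called down against WT met the same 2 conditions. Adnp, a chromatin-associated transcription factor, was at 36.8, 31.6, 69.0, 93.2 and 22.1 CPM across WT 1 to 5 and 3.05, 11.1, 5.76 and 3.67 CPM across FeO 1 to 4 (log2 fold change -3.09, standard error 0.48, adjusted p = 0.000494 from edgeR), with 81.2% of its 31-base sequences found in other genes. Sox4, a transcription factor of progenitor cells, was at 286, 255, 201, 58.7 and 342 CPM across WT 1 to 5 and 32.5, 43.7, 20.6 and 36.3 CPM across FeO 1 to 4 (log2 fold change -2.78, standard error 0.67, adjusted p = 0.00417 from edgeR). WT 4 was nearest to FeO, and 54.7% of the 31-base sequences of Sox4 are shared. Hif3a, a negative regulator in the hypoxia pathway, was at 18.5, 21.8, 26.7, 19.2 and 14.8 CPM across WT 1 to 5 and 1.28, 5.52, 1.66 and 6.63 CPM across FeO 1 to 4 (log2 fold change -2.42, standard error 0.49, adjusted p = 0.00160 from edgeR). The kinase Map3k13 and the centriole gene Fbf1 fell by 2.43 and 2.61. The remaining genes of the 12 with the largest fall, beside Ppara, Adamts15 and P4ha3, were Cabyr (-2.87), Zfp648 (-2.81), Gprin2 (-2.37) and Hectd2 (-2.33).

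Immediate early genes, which answer stimuli within minutes, were lower in FeO. Of 28 tested 15 (53.6%) were down and none was up, beside 19.7% and 22.4% of all genes (median -1.19, and -1.27 without the length trend). Jun was at 77.1, 69.8, 52.4, 17 and 67.9 CPM across WT 1 to 5 and 9.51, 27.7, 8.13 and 25.2 CPM across FeO 1 to 4 (log2 fold change -1.69, standard error 0.52, adjusted p = 0.0161 from edgeR). Nr4a1 was at 25.2, 26.3, 17, 8.76 and 37.1 CPM across WT 1 to 5 and 4.13, 5.48, 2.84 and 8.10 CPM across FeO 1 to 4 (log2 fold change -2.15, standard error 0.68, adjusted p = 0.0188 from edgeR). Zfp36 and Dusp1 fell by 2.23 and 1.73. WT 4 had the lowest level of each of these genes in its group, inside or just above the FeO range. Among Spns1 KO libraries the fourth was far above the rest for Jun (24.7, 35.9, 36.8 and 116 CPM). Leaving out each library in turn gave between 5 and 20 genes down, so that this count depended on which libraries were in the fit.

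Circadian clock genes were mostly lower, with 9 of 19 (47.4%) down and 1 (5.26%) up, beside 19.7% and 22.4% of all genes (median -0.62, and -0.82 without the length trend). Npas2, a transcription activator of the clock (chromosome 1 from 39193731 to 39363236), was at 3.38, 3.76, 3.97, 3.85 and 3.47 CPM across WT 1 to 5 and 24.4, 6.36, 16.9 and 4.54 CPM across FeO 1 to 4 and at 3.00, 3.98, 2.10 and 2.03 CPM in Spns1 KO (log2 fold change 1.82, standard error 0.39, adjusted p = 0.00201 from edgeR). FeO 1 and 3 were far above FeO 2 and 4, which lay close to the highest WT library. The repressors Per2 and Cry2 and the receptor Rora were lower in every FeO library than in any WT library. Per2 was at 229, 231, 188, 104 and 183 CPM across WT 1 to 5 and 20.1, 82.6, 39.0 and 57.2 CPM across FeO 1 to 4 (log2 fold change -1.91, standard error 0.39, adjusted p = 0.00167 from edgeR), and Cry2 and Rora fell by 2.08 and 1.74. Per1 fell by 2.01, but WT 4 overlapped with FeO. Dbp and Nr1d1, output and repressor genes that swing widely over the day, spread over the FeO libraries without a common shift, at 1.90, 71.8, 6.31 and 26.5 CPM and 5.21, 57.5, 5.40 and 38.0 CPM, against 21.9, 21.4, 16.7, 18.4 and 32.8 CPM and 27.4, 26.8, 24.2, 27.1 and 51.9 CPM in WT. FeO 1 and 3, low in Dbp and Nr1d1, were the libraries high in Npas2 and in Arntl (40.4, 14.9, 35.9 and 11.7 CPM), the partner of CLOCK and NPAS2. The part of the hour of collection in these values was not tested.

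**Figure D5:**
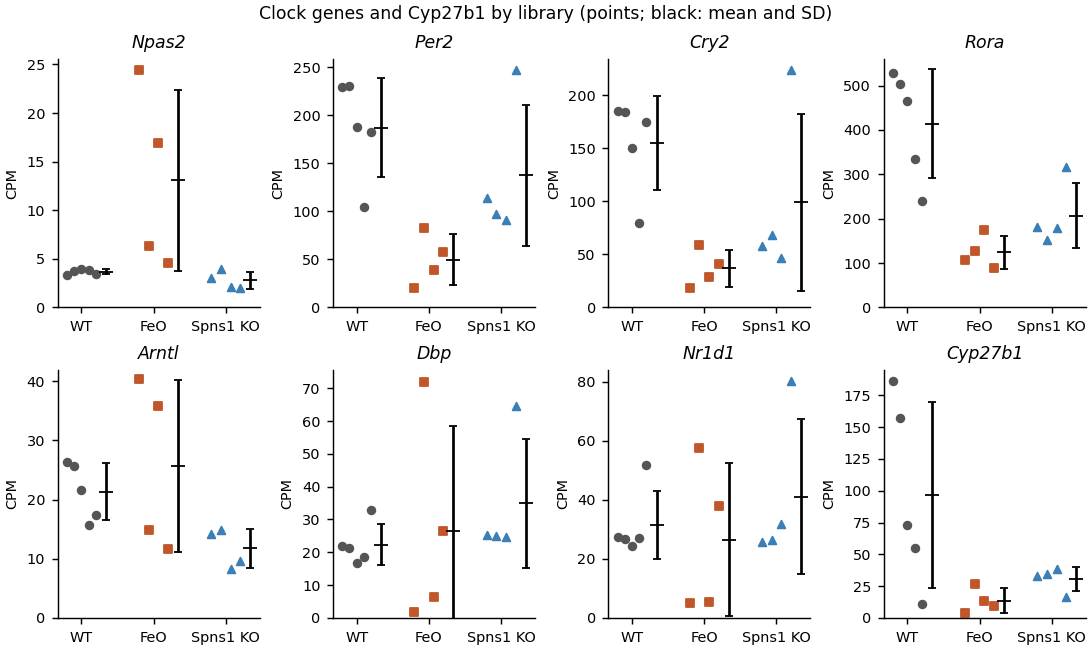
Levels in CPM (y axes, from 0) of 7 clock genes and Cyp27b1 in each of the 13 libraries, by group (x axes), with the mean and SD of each group in black. Per2, Cry2 and Rora are lower in every FeO library than in any WT library, while FeO 1 and 3 differ from FeO 2 and 4 in Npas2, Arntl, Dbp and Nr1d1.

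Among genes of vitamin D and phosphate handling 2 of 18 were up and 4 down (3 up and 4 down without the length trend), or 11.1% and 22.2% beside 22.4% and 19.7% of all genes. Cyp27b1, the proximal tubule enzyme that makes active vitamin D, was at 186, 158, 73.0, 55.1 and 11.1 CPM across WT 1 to 5 and 3.84, 26.9, 13.6 and 9.52 CPM across FeO 1 to 4 (log2 fold change -2.84, standard error 0.67, adjusted p = 0.00361 from edgeR). WT 5 lay inside the FeO range, whereas the other WT libraries were at least 55.1 CPM. The phosphate transporter Slc20a1 and the vitamin D receptor Vdr fell by 1.19 and 0.54, and the parathyroid hormone receptor Pth1r and its scaffold partner Slc9a3r1 (NHERF1) rose by 0.77 and 1.27. Slc9a3r1 was at 115, 100.4, 86.6, 91.1 and 99.8 CPM across WT 1 to 5 and 208, 279, 326 and 140.1 CPM across FeO 1 to 4. Of 50 proximal tubule transporters 13 were up and 4 down against WT (15 up and 3 down without the length trend), and the share up, 26%, is near the 22.4% of all genes. Against Spns1 KO 17 were down, beside 6.76% of all genes, and none was up, beside 8.1% (2 up at an unadjusted p under 0.05 in edgeR, 0 by DESeq2 and limma-voom). The organic anion carrier Slc22a7, the peptide carrier Slc15a2, the water channel Aqp1 and the mannose carrier Slc5a10 rose by 1.95, 1.41, 1.20 and 1.11. Slc4a4, the basolateral bicarbonate exit of the proximal tubule, fell (-1.27), as did the lactate carrier Slc5a12 (-1.46), the glucose carrier Slc2a2 (-1.04) and the amino acid carrier Slc7a8 (-0.75), and these 4 were also lower than in Spns1 KO (Slc4a4 (-1.79), Slc5a12 (-1.90), Slc2a2 (-1.43) and Slc7a8 (-1.63)). Without the length trend the calls of Vdr, Slc4a4 and Slc7a8 were lost. Slc2a2 was at 201, 191, 189, 269 and 164 CPM across WT 1 to 5 and 63.5, 106, 153 and 71.8 CPM across FeO 1 to 4 and at 286, 232, 338 and 208 CPM in Spns1 KO.

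Of 28 genes of tubule injury and repair 12 (42.9%) were up and 2 (7.14%) down against WT, beside 22.4% and 19.7% of all genes (8 up and 2 down without the length trend). Against Spns1 KO 10 of the 28 were up and 1 was down, beside 8.1% and 6.76% of all genes. Vim, the intermediate filament vimentin, was at 17.6, 19.0, 14.6, 17.6 and 29.1 CPM across WT 1 to 5 and 76.9, 44.1, 58.3 and 53.7 CPM across FeO 1 to 4 and at 21.7, 17.3, 29.1 and 12.2 CPM in Spns1 KO (log2 fold change 1.57, standard error 0.25, adjusted p = 0.000508 from edgeR). Cd44, a hyaluronan receptor of regenerating tubules, rose by 1.45 against WT and 2.28 against Spns1 KO. Timp1 and Sprr1a rose by 1.51 and 1.49, with Timp1 at no more than 1.27 CPM. Havcr1, which encodes the injury marker KIM-1, split the FeO libraries, at 0.721, 0.357, 18 and 22.1 CPM in FeO 1 to 4 against 9.39, 7.92, 0.189, 0.707 and 4.09 CPM in WT, so that no call was made (log2 fold change 1.20, standard error 0.99, adjusted p = 0.332 from edgeR). The chemokine Cxcl1 and the transcription factor Myc fell by 1.79 and 1.03, both with overlap. Among 30 cell cycle genes 14 (46.7%) were down and 2 (6.67%) up, beside 19.7% and 22.4% of all genes (1 up and 13 down without the length trend). The proliferation genes Top2a and Mki67 fell by 1.61 and 1.60, while Ube2c and Pcna rose by 1.32 and 0.84. Interferon-stimulated genes were up in 13 of 50 and down in 3 (8 up and 2 down without the length trend). The share up, 26%, is near the 22.4% of all genes. Foremost were Ifi27l2a (1.67), Gbp2 (1.52) and Psmb10 (1.46), with Mx2 the most reduced (-1). Antigen presentation and complement genes were up in 14 of 27 (51.9%, beside 22.4% of all genes) and in 6 without the length trend. Down were 3 (11.1%, beside 19.7% of all genes). The C1q chains C1qa, C1qb and C1qc were raised by 1.46, 1.15 and 1.28 and Cfd by 1.63. Of the genes named in the injury, cell cycle, interferon and complement lists, Timp1, Sprr1a, Mki67, Pcna, Ifi27l2a, C1qb and Cfd lost their calls without the length trend.

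Markers of other kidney cells moved with these results. The 19 macrophage markers summed to 67.7 to 92.0 CPM in WT, 109 to 227 CPM in FeO and 98.1 to 154 CPM in Spns1 KO, with 7 of 16 tested up and none down against WT. The share up, 43.75%, stands beside 22.4% of all genes. Lyz2, Mpeg1 (2.14), Tyrobp (1.91) and Adgre1 (1.18), which encodes F4/80, rose, while Clec4f was at a median of 0. Mpeg1 was at 5.91, 7.64, 3.56, 11 and 4.01 CPM across WT 1 to 5 and 29.2, 11.1, 37.3 and 35.9 CPM across FeO 1 to 4. Collecting duct markers summed to 578 to 999 CPM in WT and 769 to 2123 CPM in FeO, with 9 of 15 (60%) up (5 without the length trend), among them Avpr2 (2.02), Slc4a1 (1.72), Hsd11b2 (1.70) and Aqp3 (1.41), and 7 were also up against Spns1 KO. Over all genes 22.4% were up against WT and 8.1% against Spns1 KO. Podocyte markers were up in 6 of 10 and down in 1 (6 up and 0 down without the length trend), with Clic3 raised by 2.86. Thick ascending limb markers were up in 4 of 8, including Cldn10 (2.03) and Ppp1r1a (2.06). The shares up of podocyte and thick ascending limb markers, 60% and 50%, stand beside 22.4% of all genes. Ppp1r1b, which holds a 5′ UTR hairpin of the kind shown, rose by 1.92 and was also above Spns1 KO (1.39). Proximal tubule markers, the labelled source of the RNA, were present in every library, at sums of 8868 to 11757 CPM in WT, 7231 to 20857 CPM in FeO and 17433 to 20905 CPM in Spns1 KO. Of the 16, 3 (18.75%) were up against WT, among them Cyp2e1 (1.78) and Kap (1.52), beside 22.4% of all genes. Down were 2 (12.5%), Slc5a12 and Acsm2 (-1), beside 19.7% of all genes. Once the length trend was removed, 1 was up and 1 down. In FeO against Spns1 KO 1 of the 16 was up and 8 were down, beside 8.1% and 6.76% of all genes. Kap, an androgen-regulated gene, was at 582, 839, 2679 and 6728 CPM over the FeO libraries against 1038, 1082, 937, 864 and 793 CPM in WT. FeO 4 also had the most RNA of red cell markers, 261 CPM against 55.2 to 70.9 CPM in the other FeO libraries and 20.9 to 42.9 CPM in WT. Of 17 tested lymphocyte and plasma cell markers 3 were up, Igha, Igkc and Jchain (1.72). Down were 3, Ighd (-2.25), Cd3d (-2.01) and the plasma cell gene Mzb1 (-1.30), with the same counts without the length trend. Each share, 17.6%, is below the 22.4% and 19.7% of all genes. Without the length trend Kap and Acsm2 lost their calls. In captured RNA from whole tissue, a change in the number of cells of a type and a change in RNA per cell cannot be told apart, and the part of these cells in the results above was not tested.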

How the data were processed

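Kidney RNA labelled with 4-thiouracil was biotinylated, captured on streptavidin and enriched for poly-A RNA, and libraries were read from both ends. The authors deposited estimated counts for 35013 gene symbols in 13 libraries, with no normalization, and the values were whole numbers. The labels name kallisto 0.44.0, DESeq2 and GRCm38, whereas the methods describe alignment to mm10 with STAR and counting with HTSeq, so the counter is uncertain. Groups were taken from the labels. The sources do not say in so many words that each library is 1 mouse, so p-values measure the spread between these samples. Libraries of a group differed by more than sampling noise. WT 1 and WT 2 were the closest pair, with a correlation of log2 CPM of 0.9938, against at most 0.9853 for other WT pairs. Whether they are independent is not given in the sources.

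Genes kept by filterByExpr (16468) were fitted over all 13 libraries with edgeR 4.0.16 (R 4.3.3), TMM factors and the quasi-likelihood test, with Benjamini-Hochberg adjustment over all genes tested. Limits were an adjusted p under 0.05 and a log2 fold change beyond 0.5. The study used DESeq2, which was an alternative (DESeq2 1.42.0), as were limma-voom (limma 3.58.1), other size factors, no filter, both groups only, glmTreat, a length and GC trend (mgcv 1.9.3), the replicate block and each library left out. CPM values are counts divided by the TMM-scaled library total, and levels of different genes are not compared. On counts simulated for FeO against WT tested over 16263 genes, 50% of 2-fold and 86.7% of 4-fold changes were recovered. The simulation changed far fewer genes than were called in the data and held no length trend, so these rates may not apply to the comparison itself.

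Gene lists and the members named were chosen with earlier results of these data known. Genes were named by rule: a mean of at least 100 counts over WT and FeO, then the 12 largest changes a direction without overlap, the 10 that also differed from Spns1 KO and from every other library, up to 4 called members of a list in each direction, and fixed iron and injury genes. The rule leaves out symbols of gene models. Outside it, Eno1, Gm6054, Gm6055, Map1lc3b, Tmprss6, Ppp1r1b, Trim23, Alas2, G6pdx, Me1, Prdx1, Srxn1, Mgst1, Sod1, Pltp, Timp1, Cxcl1, Ifi27l2a, Psmb10, Mx2, Dbp, Nr1d1, Arntl, Ube2c, Clic3, Tyrobp, Jchain, Ighd, Cd3d, Adgre1, Ftl1-ps1, Gstm5 and Rps13 were named after their values were seen. Results of some genes are not reported here. Lengths are those of the longest GENCODE vM21 transcript, matched for 34225 symbols. Strand was not given for the counting, so reads of overlapping antisense genes cannot be told apart.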

Additional observations from a re-analysis of the deposited data

Results flagged for a closer look

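For each gene named in the report the highest and the lowest library of WT and of FeO were compared with the rest of their group by Dixon's criterion at the 95% level. Of 430 groups of values 27 held a library that stood apart, where chance gives about 1 in 20. WT 4, WT 5 and FeO 4 account for 8, 7 and 5 of them. In FeO 1 these were Tuba8 (11.9 CPM), Aoc1 (18.4 CPM) and Cubn (77.5 CPM). In FeO 2 this was Kdm5a (74.3 CPM). In FeO 3 this was Slc46a1 (18.3 CPM). In FeO 4 these were Zfp648 (1.54 CPM), Pcbp1 (89.2 CPM), Ddit4 (16.2 CPM), Pfkfb3 (79.0 CPM) and Aqp1 (342 CPM). In WT 1 this was Fdps (15.6 CPM). In WT 3 this was Kat6b (108 CPM). In WT 4 these were Aoc1 (3.46 CPM), Steap4 (12.6 CPM), Slc40a1 (92.0 CPM), Ppp1r1b (23 CPM), Slc20a1 (109 CPM), Slc4a1 (12.3 CPM), Ppp1r1a (36.0 CPM) and Spns1 (39.2 CPM). In WT 5 these were Rps13-ps1 (17.5 CPM), Igha (3.90 CPM), Ppara (131 CPM), Lgals3 (32.1 CPM), Hspb8 (8.53 CPM), Nr1d1 (51.9 CPM) and Cyp2e1 (163 CPM). The causes were not tested.

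Of the 215 named genes 79 differed between the effects of iron loading and of Spns1 loss, tested as FeO against Spns1 KO with edgeR (adjusted p under 0.05 and a log2 fold change beyond 0.5). The 44 higher in FeO were, with their log2 fold changes against Spns1 KO, Gm6055 (12.72), Gm6054 (12.05), Eno1b (10.24), Rps13-ps1 (6.99), Gpnmb (4.34), Havcr1 (4.25), Clec4d (3.41), Mmp19 (2.64), Cd44 (2.28), Tuba8 (2.27), Npas2 (2.23), Lgals3 (2.18), Cd53 (2.18), Cyp2e1 (1.996) and Hspb8 (1.99). Next in size were Aoc1 (1.87), Avpr2 (1.74), Steap4 (1.66), Ccl6 (1.65), Vim (1.54), Mpeg1 (1.45), Sdf2l1 (1.42), Ppp1r1b (1.39), Dhcr7 (1.37), Cdkn1a (1.22), Sprr1a (1.22), Cldn10 (1.14), Arntl (1.13), Srxn1 (1.13) and G6pdx (1.13). Smaller differences were those of Steap3 (1.12), Acta2 (1.10), Aqp3 (0.98), Calr (0.97), Manf (0.96), Ebp (0.92), Vdac3 (0.90), Slc9a3r1 (0.85), Slc39a1 (0.76), Cryab (0.75), Fanca (0.74), Hfe (0.69), Pcna (0.69) and Rps7 (0.62). The 35 lower in FeO than in Spns1 KO were Ftl1-ps1 (-2.29), Nr4a1 (-2.16), Zfp648 (-2.10), Cd3d (-2.08), Ppara (-2.06), Tmem178b (-2.001), Id1 (-1.92), Slc5a12 (-1.90), Adamts15 (-1.83), Dennd3 (-1.80), Slc4a4 (-1.79), Adamts1 (-1.78), Tet1 (-1.77), Acsm2 (-1.77) and Zfp871 (-1.74). Further down the order stood Xylt1 (-1.66), P4ha3 (-1.64), Slc7a8 (-1.63), Syne3 (-1.56), Smad9 (-1.56), Adnp (-1.56), Gprin2 (-1.55), Per2 (-1.47), Slc2a2 (-1.43), Cry2 (-1.43), Cubn (-1.41), Mx2 (-1.26), Rps13 (-1.24), Chd2 (-1.08) and Slc11a2 (-1.04). The order ended with Lrp2 (-1.01), Ep300 (-0.88), Eif3a (-0.86), Kdr (-0.72) and Herc2 (-0.68). The values of the gene copies Gm6055, Gm6054 and Eno1b are set against Spns1 KO libraries at or near 0 counts and depend on how a 0 is handled. Many of these genes were named because they differed from Spns1 KO, so their number is not a result, and the comparison with WT uses the same FeO libraries.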

How the results depend on the processing

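Against WT the counts of 3691 genes up and 3252 down stayed within 1.5 times of these values under DESeq2, limma-voom, other size factors, no filter on low counts, a fit of both groups only, removal of the length and GC trend, and the replicate block. They moved to 1855 and 1264 with glmTreat, which tests against the limit itself, and to 2118 and 2129 with the length and GC trend removed and the replicate block together. Leaving out each library gave 3294 to 4042 up and 2333 to 3534 down. Against Spns1 KO the counts of 1334 and 1113 moved to 189 and 154 with glmTreat and to 599 and 441 when the fit held those groups only, which leaves fewer libraries for the spread. Leaving out each library gave 636 to 1630 up and 545 to 1457 down there. The lowest counts came without FeO 1. Without Spns1 KO 1 they were 787 and 615, without Spns1 KO 2 they were 764 and 683, and without FeO 3 the count down was 739. The replicate block gave 3325 up and 3191 down against WT. Samples share only a number: deviations of FeO and WT libraries with the same number had correlations of -0.203, 0.194, -0.119 and -0.0100, and the samples did not all correlate best with their own number.

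Of 197 named genes called against WT, 117 were called under every alternative, and 39 were not called once the length and GC trend was removed (Eno1, Rps13-ps1, Pcbp1, Lcn2, Cybrd1, Smad5, Smad7, Herc2, Eif3a, Trim23, Ogfod3, Gpx4, Srxn1, Mtf1, Hspe1, Hspb1, Pfkfb3, Timp1, Sprr1a, Ifi27l2a, Cfd, C1qb, Fabp3, Etfb, Ppargc1a, Vdr, Slc4a4, Slc7a8, Mki67, Pcna, Kap, Acsm2, Ndufs5, Gstm5, Abca1, Tagln, mt-Co2, mt-Co3 and Kdr). Of 79 called against Spns1 KO, 30 were called under every alternative. Signs turned with the length and GC trend removed for Lrp2 0.49, Cubn 0.35, Dbp -0.19 and Rps13 -0.066, with that trend removed and the replicate block for Lrp2 0.51, Cubn 0.31, Dbp -0.73, Kap -0.043, mt-Co2 -0.024 and Rps13 -0.18, with library totals for Aco1 -0.0073, with the replicate block alone for Aco1 -0.038, Ndrg1 -0.027, Mt2 0.16 and Dbp -0.30, with limma-voom for Mt2 0.031 and Dbp -0.80. Leaving out libraries turned signs too. The ranges were, for Aco1 from -0.13 to 0.27 (turned without FeO 3), Ndrg1 from -0.095 to 0.53 (turned without FeO 3), Mt2 from -0.43 to 0.17 (turned without WT 5), Dbp from -0.94 to 0.67 (turned without FeO 2), Nr1d1 from -0.96 to 0.11 (turned without WT 5, FeO 1 and FeO 3) and Arntl from -0.019 to 0.53 (turned without FeO 1). Of the genes whose sign turned, Kap and mt-Co2 had been called. The causes were not tested. Genes near or under 1 CPM, such as Tmprss6, Alas2 and Timp1, rest on few counts in each library. The number of libraries limits the comparisons more, and the hour of collection and the date of processing are not given in the sources used here.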

Other observations

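Genes of cholesterol synthesis and uptake split, with 9 of 29 up and 4 down in FeO against WT (7 and 1 without the length trend). Ebp, a sterol isomerase of the late pathway, was at 11.1, 9.37, 8.57, 10.7 and 15.1 CPM across WT 1 to 5 and 37.5, 34, 50 and 29.3 CPM across FeO 1 to 4 (log2 fold change 1.78, standard error 0.21, adjusted p = 0.000313 from edgeR), and Fdps, which makes farnesyl diphosphate, rose by 0.94. Among those that were lower was the sterol exporter Abca1 (-0.82). Among the 13 mitochondrially encoded genes of the respiratory chain 3 were up, foremost mt-Co2 (0.96) and mt-Co3 (0.84), and none was down (1 at an unadjusted p under 0.05 in edgeR, 1 by DESeq2 and 1 by limma-voom), but without the length and GC trend none was up and 2 were down. The share up, 23.1%, is near the 22.4% of all genes.

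Other marker lists moved less. The shares up of endothelial and of fibroblast and pericyte markers, 25% and 20%, are near the 22.4% of all genes. Of 12 endothelial markers 3 were up, led by Emcn (0.89), and 1 was down, Kdr (-0.65), or 2 and 0 without the length trend. Their summed level was 377 to 484 CPM in WT and 326 to 577 CPM in FeO. Of 10 fibroblast and pericyte markers the contractile genes Acta2 (1.46) and Tagln (1.14) were up and none was down (1 at an unadjusted p under 0.05 in edgeR, 0 by DESeq2 and limma-voom), or 1 up without the length trend, at sums of 137 to 171 and 119 to 274 CPM. None of the 7 distal convoluted tubule markers was called by edgeR (1 was down at an unadjusted p under 0.05, 1 by DESeq2 and 1 by limma-voom), at sums of 868 to 2533 and 1003 to 2527 CPM.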
